A study of Mus musculus with 6 samples.

Results

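The transcript models of this series are stretches of the mouse genome assembled from RNA reads, and a model of 2 or more exons is one in which reads were joined across at least 1 gap that the aligner read as an intron. Members were the models on chromosomes 1 to 19 (mm10) whose list of starts held 2 or more values. There were 1901 such multi-exon models among 7702 models on those chromosomes and 7959 in all. The other 5801 autosomal models had a single exon. RNA was taken from MEL cells, an established mouse erythroleukemia line labelled as C57BL/6, after crosslinking with formaldehyde. TH59-DB, a telomere-directed probe built as a pyrrole-imidazole polyamide, was used to capture chromatin, masked TH59-DB was the negative control probe, and input was RNA of the chromatin before capture. Each of the 3 groups had 2 libraries of the same cell line, and the labels do not say that these came from separate cultures, so p-values measure only the spread between these libraries, which may be technical.

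Most protein-coding genes of mammals are transcribed with introns, which the spliceosome removes, often while the polymerase is still on the gene. A junction between exons in a read therefore marks RNA that has been at least partly spliced. Mature messenger RNA leaves the nucleus for the ribosome, whereas unspliced precursors, introns and many long non-coding RNAs stay with chromatin. Most introns start with GT and end with AG in the DNA of the transcribed strand. Aligners that join reads across gaps need only a few bases on the shorter side, so a junction with a very short overhang is less well anchored than one with a long one.

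The bases at exon edges of members show how exactly the models end at splice sites. They are shown because all comparisons with single-exon models rest on the junctions. Only the RefSeq windows around gene starts (GRCm38.p6) hold sequence here, so the edges that fell in such a window were read. The sequences run 5′ to 3′ on the gene's strand. Capitals mark the last 10 bases that the model counts as exon, and lower case the next 20 bases. In the first 3, from genes on the minus strand, the intron side opens with gt.
Rps28, chr17:33824414-33824443, minus strand: GCTGGCTAGGgtgaggcgactgcgggtgtt
Eif5a, chr11:69921143-69921172, minus strand: TTCGCGCGAGgtgagagcgggcagggcgcg
Eif3c, chr7:126566328-126566357, minus strand: AGCTTAGCTGgttcgtgtctcttgggcctc
In the next 3, from genes on the plus strand, a GT lies 3 bases inside the stretch counted as exon.
Rps24, chr14:24490752-24490781, plus strand: CATCATGGTGagtctcctcgggctctcagc
Rps2, chr17:24720126-24720155, plus strand: AGAACACGTGagtctatgttgctgggacct
Ubb, chr11:62551589-62551618, plus strand: TTAACAGGTAtttgtctacggcgtttgaat
Of 35 donor edges taken from the deposited starts (genes on the minus strand), 30 had GT as the first 2 intron bases. Of 28 donor edges taken from the deposited ends (genes on the plus strand), 9 did, and 18 of the others had a GT that began 1 to 7 bases inside the exon. A GT that began 1 base inside, as in Mta2, runs across the edge. Some of the 9, such as Rps19, Ppp1r10 and Prpf31, also had a GT within the last bases counted as exon. Which GT is the splice site was not tested. At the acceptor side, 2 of 5 edges from starts and 1 of 8 edges from ends had AG in the last 2 intron bases. Many deposited exon ends thus lay a few bases away from a GT, and exon lengths below are those of the deposited coordinates.

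The members were longer than single-exon models and lay more often in annotated genes. Their summed exon length had a median of 331 bases (quartiles 239 and 474, range 36 to 7543), against 234 bases (182 and 338, range 42 to 6105) in single-exon models. From first to last base they spanned a median of 2484 bases. There were 986 members with 2 exons (51.9%), 494 with 3 (26.0%), 246 with 4 (12.9%) and 175 with 5 or more (9.21%). The 3555 introns had a median of 831 bases, 21 were under 50 bases and 12 were over 100000 bases. In all, 1834 members (96.5%) lay in the span of a RefSeq gene, against 4837 single-exon models (83.4%), and 1806 lay in the span of a protein-coding gene, against 4491 single-exon models. The rule was not alike for the kinds, since genes of at most 1000 bases were used for most single-exon models but not for members. The deposited strand was that of the gene for 1417 of 1439 members that could be set against the strand of a single gene (98.5%), and all 5801 single-exon models carried no strand. Members were mostly fragments of their genes: a member spanned a median of 11.3% of its gene's span, and 233 of 1834 spanned more than 50%. The 1834 models in spans fell in 1472 genes, of which 258 held more than 1, with Fasn, the fatty acid synthase gene, holding 6. Members overlapped one another at few places, with 103 sharing a locus, and the reads of those can be counted more than once.

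The members with the most exons were pieces of Tpr, a nuclear pore protein gene, Nucb1, a calcium-binding protein gene, and Hsp90ab1, a cytosolic chaperone gene, with 10 exons each. The widest was a model of 4 exons in Prkce, a protein kinase C gene, at chr17:86168778-86475535. The longest was a model of 3 exons in Mki67, the gene of the proliferation antigen Ki-67, at chr7:135689836-135701059, whose largest exon had 6828 bases. These models were read in every group. Hsp90ab1 had 4874 and 6847 reads in input, 1176 and 5646 with the masked probe, and 1064 and 1633 with TH59-DB. Mki67 had 3280 and 4996 reads in input, 3449 and 11172 with the masked probe, and 6089 and 8626 with TH59-DB. Prkce had 8 and 26 reads in input, 0 and 47 with the masked probe, and 14 and 9 with TH59-DB. Per 1000000 reads of the library total (CPM), both TH59-DB libraries lay below both input libraries for Hsp90ab1 and above them for Mki67, and for Prkce the groups overlapped. None of these differences passed the test (Mki67 TH59-DB against input, log2 fold change 1.36 with SE 0.93, edgeR adjusted p = 0.629).

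The library totals recovered from the deposited FPKM ran from 1803723 to 3122558 reads. In TH59-DB 1 the lowest count of any model was 5, although the other libraries had many models at 0, so it is possible that the model set was drawn up on that library. This bears on every comparison with it. A single-exon model in Zc3h7a took 74.0% of the autosomal model reads of masked TH59-DB 1, 28.5% and 34.2% of those of the input libraries, 34.2% of those of masked TH59-DB 2, 36.4% of those of TH59-DB 1 and 8.40% of those of TH59-DB 2. Shares of reads move with this model.

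The median member had a higher level than the median single-exon model in every library. On the FPKM scale (reads per kilobase of exon per 1000000 reads of the library total, computed from the counts), the median member stood at 36.8 and 57.8 in input, 20.7 and 60.6 with the masked probe, and 45.1 and 24.5 with TH59-DB. The median single-exon model stood at 4.79 and 7.58 in input, 0 and 10.9 with the masked probe, and 38.2 and 7.24 with TH59-DB. The ratio of the medians was 7.70 and 7.62 in input, 5.57 in masked TH59-DB 2, 1.18 in TH59-DB 1 and 3.38 in TH59-DB 2, and it could not be formed in masked TH59-DB 1. The mean FPKM was lower in members in input 1 (153 against 203) and masked TH59-DB 1 (97.8 against 243) and higher in the other 4 libraries. The ratio of medians was smallest in the TH59-DB libraries, of which the first is the library with no model under 5 reads. Few members had 0 reads in most libraries, with 55 and 76 at 0 in input, 0 and 38 at 0 with TH59-DB and 50 for the second masked library, against 487 for the first masked library. Across the 1901 members the Spearman correlation of levels was 0.952 for the input pair, 0.717 for the masked pair and 0.716 for the TH59-DB pair. Masked TH59-DB 2 stood closer to input (0.872 and 0.878) than to masked TH59-DB 1.

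The share of autosomal model reads in members did not differ between groups beyond the spread of the libraries. It was 18.2% and 26.6% in input, 8.44% and 26.6% with the masked probe, and 20.6% and 35.7% with TH59-DB. The means were 22.4% ± 5.96 (SD, n = 2), 17.5% ± 12.8 and 28.2% ± 10.7, and the ranges overlapped. These shares include a pair of overlapping models on Rpph1, an RNA without an intron, whose shared reads are counted in both models. They are thus not shares of spliced RNA alone. The exact permutation test (2-sided) gave p = 0.667 for each of the 3 comparisons, and 2 libraries against 2 cannot give less than 0.333.

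**Figure D1:**
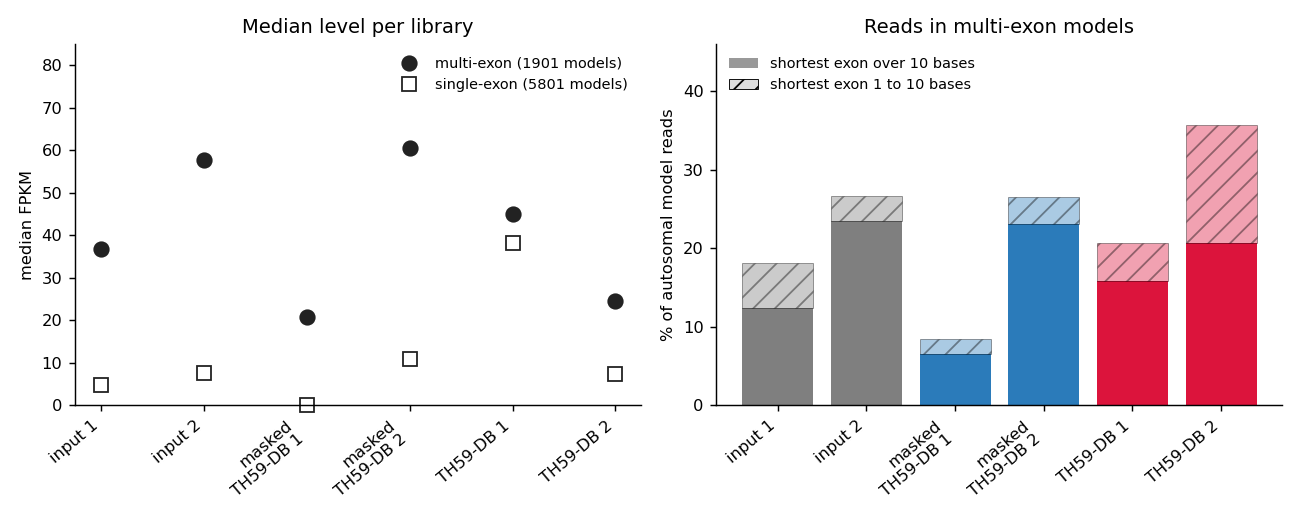
Left, the median FPKM of the 1901 multi-exon models (filled circles) and the 5801 single-exon models (open squares) in each of the 6 libraries; right, the percentage of autosomal model reads in multi-exon models, with the hatched part showing those whose shortest exon has 1 to 10 bases. Multi-exon models have the higher median in all 6 libraries, and the hatched part is largest in TH59-DB 2, at 15.1%.

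The first comparison asks which spliced models were captured by TH59-DB beyond the negative control probe. Of 1901 members, 1818 passed the filter on low counts and 83 did not. The edgeR quasi-likelihood test called 23 members higher in TH59-DB than in masked TH59-DB and 0 lower, which is 1.27% of those tested, against 1.41% of all 5385 models tested. At an unadjusted p under 0.05, 86 were higher and 51 lower. Single-exon models had 40 higher and 0 lower of 3391 tested, or 1.18%. The called share of members was thus near that of all models. The count rested on single libraries: it was 9 without TH59-DB 2, 41 without either input library, 42 when the first masked library was left out, 44 without TH59-DB 1, and 432 (363 higher and 69 lower) when masked TH59-DB 2 was left out. DESeq2 called 64 higher and 0 lower.

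Against input, TH59-DB had 59 members higher and 1 lower. This is 3.25% of the 1818 tested for the higher calls, against 3.58% of all models, and 0.0550% for the lower call, against 0.0371%. Single-exon models had 117 higher and 1 lower. Leaving out masked TH59-DB 1 gave 113 calls (89 higher and 24 lower), and leaving out masked TH59-DB 2 gave 113 as well (92 and 21). Masked TH59-DB against input, which shows what the negative control probe itself brought down, had 6 members higher and 0 lower, 0.330% against 0.26% of all models, with 52 and 49 at an unadjusted p under 0.05. It had 0 without either input library, 21 when the first masked library was left out, 31 without TH59-DB 1, 30 without TH59-DB 2 and, leaving out masked TH59-DB 2, 448 (79 higher and 369 lower).

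Below the called models, the bulk of the members stood lower relative to single-exon models in the captured RNA. The median log2 fold change of TH59-DB against masked TH59-DB was −0.18 in members, 0.57 in single-exon models and 0.30 over all models tested. Against input it was −0.60 in members, 0.42 in single-exon models and 0.03 over all. For masked TH59-DB against input it was −0.47, −0.09 and −0.26. The difference between the kinds was therefore −0.75, −1.01 and −0.38. Leaving out a library moved the first of these to as far as −5.26 (masked TH59-DB 2) and −0.40 (TH59-DB 1). In pairs of libraries with the same number the same difference was −1.45 and −0.48 for TH59-DB against masked TH59-DB, −1.06 and −0.80 for TH59-DB against input, and −0.20 and −0.23 for the masked probe against input. Scaling by RLE factors moved the median of all models to 0.51 and that of members to 0.01 in the first comparison, so the sign of the members' own median depends on scaling there. The last of these 3 differences turned to 0.94 when the second masked library was left out.

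The filter left out 2410 single-exon models but 83 members, and weak models could pass it only with reads in some group, so the kinds were also set side by side at like input levels. These levels come from the input libraries that enter the comparisons with input. The filter also acts within the levels. At no more than 1 FPKM, 40 of 60 members and 260 of 1592 single-exon models were tested. Between 1 and 10 FPKM, 107 of 160 and 784 of 1772 were. Models weak in input pass the filter mainly through reads in the captures. The medians of these low classes, and their order, are thus partly set by the filter and cannot compare the kinds. Among models with input FPKM over 50, the median log2 fold change of TH59-DB against masked TH59-DB was −0.51 in 915 members and −0.23 in 625 single-exon models. Between 10 and 50 FPKM it was 0.26 in 756 members and 0.58 in 1722 single-exon models. The order turned between 1 and 10 FPKM, with 1.37 in 107 members and 0.88 in 784 single-exon models, and at no more than 1 FPKM the medians were 4.95 in 40 members and 5.18 in 260 single-exon models. For TH59-DB against input the kinds stood closer in the 3 classes above 1 FPKM than over all models. The medians were −1.10 in members and −0.97 in single-exon models over 50 FPKM, −0.22 and 0.20 between 10 and 50, and 1.75 and 1.88 between 1 and 10. At no more than 1 FPKM the order turned and the kinds stood further apart than over all models, with 9.14 in members and 7.39 in single-exon models. For masked TH59-DB against input, members had the higher median over 50 FPKM (−0.63 and −0.75) and at no more than 1 FPKM (5.16 and 3.08), and the lower one between 10 and 50 (−0.39 and −0.36) and between 1 and 10 (0.85 and 0.94). Members were more often models of high input level, and the part of level in the differences over all models was not tested.

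Members with more exons stood lower in TH59-DB. For TH59-DB against input the median log2 fold change was −0.41 with 2 exons, −0.62 with 3, −0.88 with 4 and −1.06 with 5 or more, and the share of tested members below 0 was 63.5%, 75.4%, 84.6% and 91.9%. Against masked TH59-DB the medians were 0.08, −0.20, −0.30 and −0.55. The models with more exons were also longer and had higher levels: median length was 276, 333, 437 and 653 bases, and median input FPKM was 37.2, 49.4, 67.8 and 100.5. The part of length and level in this order was not tested.

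Within the same genes, spliced models and single-exon models lying wholly in their introns were compared. There were 122 members with 180 such intronic models. Per kilobase, the summed reads of the spliced models over those of the intronic models gave a ratio of 3.36 and 5.02 in input, 3.36 and 3.37 with the masked probe, and 1.30 and 1.50 with TH59-DB. Both TH59-DB libraries lay below the other 4, and the masked libraries had the value of input 1. The means were 4.19 ± 1.18 (SD, n = 2), 3.37 ± 0.00773 and 1.40 ± 0.145, and the exact permutation test gave p = 0.333 for TH59-DB against either group, the smallest it can give with 2 libraries against 2. The spliced model had the higher reads per kilobase in 161 and 154 of 180 pairs in input, 122 and 153 with the masked probe, and 112 and 143 with TH59-DB. The fitted median log2 fold change of TH59-DB against input was −0.44 in the hosts and 0.95 in the intronic models, with 2 of 118 and 4 of 115 tested called higher. The part of the choice of models in this ratio was not tested. Whether the intronic models came from unspliced RNA or from separate RNAs lying in introns, such as snoRNAs, was not tested either. With hosts whose shortest exon was over 10 bases, 113 in number, the ratio was 3.36 and 5.02, 3.33 and 3.37, and 1.27 and 1.46.

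Rpsa codes for a protein of the small ribosomal subunit. Its spliced model (5 exons, chr9:120129254-120131530) had 1607 and 3201 reads in input, 787 and 2358 with the masked probe, and 465 and 508 with TH59-DB. The model of 120 bases in its intron (chr9:120130413-120130532) had 86 and 13 reads in input, 11 and 19 with the masked probe, and 28 and 11 with TH59-DB. Scd2, a fatty acid desaturase gene, had 796 and 1161 reads in its model of 3 exons in input, 274 and 1046 with the masked probe, and 143 and 396 with TH59-DB. The intronic model of Scd2 had 9 and 46, 37 and 85, and 27 and 45 reads, listed likewise. In Rps3, another ribosomal protein gene, the model of 6 exons had 586 and 884 reads in input and 121 and 146 in TH59-DB, and the intronic model at chr7:99482785-99482938 had 465 and 253, and 262 and 167. A second intronic model of Rps3, at chr7:99479559-99479714, had 480 and 365 reads in input and 170 and 150 in TH59-DB. In Rpl5, also a ribosomal protein gene, host and intronic model both had fewer reads in TH59-DB, with 455 and 1037 against 64 and 171 in the host and 203 and 63 against 27 and 25 in the intron. These are reads without scaling, and Rpsa, Scd2 and Rps3 did not pass the test.

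**Figure D2:**
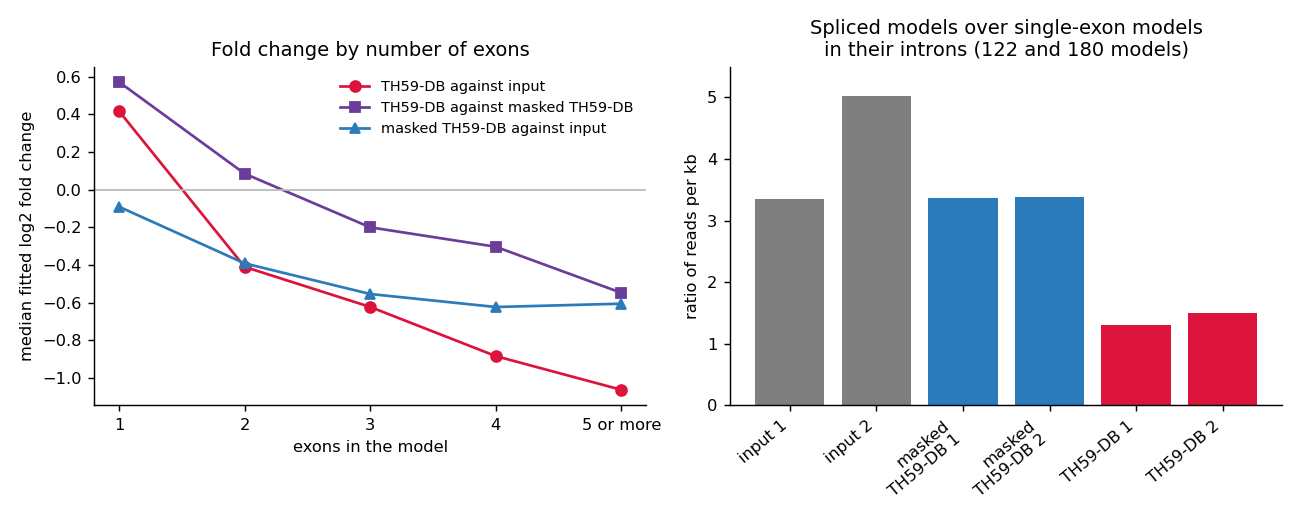
Left, the median fitted log2 fold change by number of exons, from single-exon models to models with 5 or more exons, for the 3 comparisons; right, the ratio of reads per kilobase of 122 spliced models over 180 single-exon models in their introns, per library. The ratio is 1.30 and 1.50 in TH59-DB and at least 3.36 in the other 4 libraries.

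The members called higher in the captures were mostly models of low input level, and most had a very short exon. Of the 23 called against masked TH59-DB, 9 had an input FPKM of at most 1 and 14 one between 1 and 10. Of the 59 called higher against input, 29 and 24 did. Single-exon models showed the same, with 29 and 7 of 40 and 83 and 29 of 117. Of the 1818 members tested, 40 had an input FPKM of at most 1 and 107 one between 1 and 10. Input is part of the fold change against input, so a low input level among calls in that comparison is partly given by the call. In no gene span lay 13 of the 23 and 29 of the 59. The parts of level, gene span and exon length in the calls were not told apart. The class of short exons was chosen after the data were seen, so its counts are a description with no test. In 115 members the shortest exon had 1 to 10 bases, and in 51 of them exactly 7, whereas the next commonest length up to 20 bases was 19, in 31 members. Of the 23 members higher in TH59-DB than in masked TH59-DB, 16 had an exon of 1 to 10 bases. Of the 59 higher in TH59-DB than in input, 43 did, and of the 6 higher in masked TH59-DB than in input, 4 did. As a share of members tested, 15.2%, 41.0% and 3.81% of 105 were called in these comparisons, against 0.409%, 0.934% and 0.117% of the 1713 tested members with no such exon. The medians of the log2 fold changes were 1.35, 1.12 and 0.37 with such an exon and −0.21, −0.63 and −0.50 without. With a shortest exon of exactly 7 bases, 11, 33 and 4 of 48 tested members were called higher, with medians of 3.71, 10.36 and 4.97. Members just past the limit, with a shortest exon of 11 to 20 bases, had 5, 10 and 1 of 220 called.

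**Figure D3:**
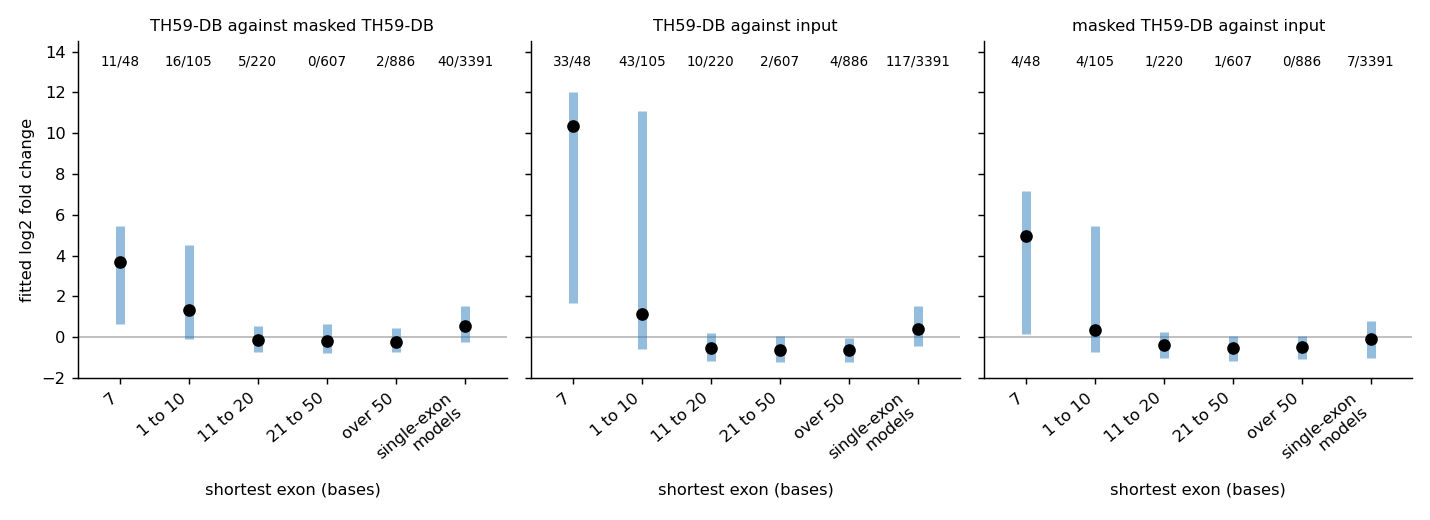
Median (points) and quartiles (bars) of the fitted log2 fold change by length of the shortest exon and for single-exon models, in the 3 comparisons, with the number called higher over the number tested above each; the class of 7 bases is part of the class of 1 to 10. The medians of the classes of 7 and of 1 to 10 bases stand above 0 in all 3 comparisons, while those of the classes over 10 bases stand below 0. The lower quartile of the class of 1 to 10 bases lies below 0 in each comparison.

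Members with an exon of 1 to 10 bases differed from the others in features the counts did not enter. The short exon was at an end of the model in 101 of 115, internal in 5, and short exons stood at both kinds of place in 9. In all, 30 (26.1%) lay in no gene span, against 37 (2.07%) of the other 1786. Their strand was that of the gene in 45 of 57 cases, against 1372 of 1382. Their longest intron had a median of 5048 bases against 1504, their length a median of 214 bases against 335, and 42 shared a locus with another model against 61 of the others. Only 1 of 59 members called higher against masked TH59-DB or input had an exon in a RefSeq window, so the bases at their junctions are not shown.

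In reads, these 115 models made up 5.78% and 3.13% of autosomal model reads in input, 1.86% and 3.51% with the masked probe, and 4.83% and 15.1% with TH59-DB. The share in TH59-DB lay above that in masked TH59-DB in both libraries and overlapped that in input, which is a description, since the class was chosen with its calls known. The other members made up 12.4% and 23.5% in input, 6.58% and 23.1% with the masked probe, and 15.8% and 20.6% with TH59-DB, with overlapping ranges. Among them was a pair of overlapping models on Rpph1, an RNA without an intron, which share nearly all their reads. The pair had 34413 and 34257 of 163482 such reads in TH59-DB 1 and 29349 and 29261 of 176207 in TH59-DB 2. In input 1 it had 6540 and 6366 of 182164, and in input 2 it had 9555 and 9529 of 280936. Shares without this pair were not computed.

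Among the called models themselves, the smallest adjusted p against masked TH59-DB belonged to a model of 5 exons in no gene span at chr5:32629166-32723305, with exons of 9, 7, 947, 641 and 7 bases. It had 0 and 1 reads in input, 0 and 0 with the masked probe, and 198 and 94 with TH59-DB. TH59-DB was at least 58.8-fold higher than masked TH59-DB, taken against 3 reads per library (edgeR adjusted p = 0.0148), and this model passed under all 13 alternative fits, with adjusted p from 1.88e-08 to 0.0146.

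Arhgap35 had a model at chr7:16535354-16540104 with exons of 1045 and 12 bases. It had 5 and 4 reads in input, 6 and 11 with the masked probe, and 195 and 234 with TH59-DB. TH59-DB was 30.2-fold higher than masked TH59-DB in mean CPM (log2 5.15, SE 0.75, edgeR adjusted p = 0.0170), and without TH59-DB 2 the adjusted p was 0.0685. Sipa1l1, which codes for a Rap GTPase-activating protein of synapses, had exons of 571 and 9 bases at chr12:82272630-82275645. Its reads were 3 and 5 in input, 1 and 2 with the masked probe, and 70 and 130 with TH59-DB (edgeR adjusted p = 0.0172, and 0.244 without TH59-DB 2). In both genes every TH59-DB library lay above all 4 others.

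A pair of overlapping models in no gene span, at chr2:181870889-181872372 and chr2:181871312-181872372, shares most of its reads and lies within 1 Mb of the outermost gene or model of chromosome 2. The first had 2 and 0 reads in input, 0 and 0 with the masked probe, and 97 and 170 with TH59-DB, and was at least 48.1-fold higher than masked TH59-DB (edgeR adjusted p = 0.0197, and 0.172 without TH59-DB 2). The second had a gap of 1 base between its exons of 17 and 1043 bases. Members were rarer near the chromosome ends than single-exon models: 26 (1.37%) lay within 1 Mb of that outermost mark, against 245 (4.22%), and 3 of the 23 members called higher against masked TH59-DB did.

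Some called members with an exon of 7 or 8 bases had many more reads in TH59-DB 2 than in TH59-DB 1. The model at chr13:110602508-110608428 (exons of 7, 88 and 9 bases) had 0 and 1 reads in input, 9 and 30 with the masked probe, and 504 and 2830 with TH59-DB (edgeR adjusted p = 0.0281 against masked TH59-DB, becoming 0.0519 with the first masked library left out). The model at chr13:115737204-115742339 (8 and 76 bases) had 1 and 0, 8 and 26, and 411 and 2598 reads (edgeR adjusted p = 0.0320). The model in 4732471J01Rik at chr7:25555752-25560441 (7 and 689 bases) was more even, with 6 and 3, 18 and 31, and 308 and 533 reads (edgeR adjusted p = 0.0281, 0.0685 without TH59-DB 2 and 0.0553 without masked TH59-DB 1). For all 3 the masked libraries lay between input and TH59-DB.

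Some members were high in both captures and nearly absent in input. A model at chr10:109396053-109422780 in no gene span (exons of 42 and 11 bases) had 2 and 1 reads in input, 1385 and 2030 with the masked probe, and 1594 and 2439 with TH59-DB. Against input, masked TH59-DB was higher by 10.07 on the log2 scale (SE 1.27, edgeR adjusted p = 0.0312) and TH59-DB by 10.76 (SE 1.30, edgeR adjusted p = 0.00287). The model in Setd4, a methyltransferase gene (59 and 7 bases, chr16:93597927-93599205), had 4 and 1 reads in input, 517 and 1091 with the masked probe, and 3047 and 6270 with TH59-DB, with an edgeR adjusted p of 0.220 between the captures. The model in Gm32035 (84 and 29 bases, chr4:93844367-93844515) had 2 and 1, 111 and 257, and 1132 and 2414 reads, listed likewise. The model in Ttc21b, a gene of ciliary transport (7 and 298 bases, chr2:66185762-66189510), had 1 and 0, 75 and 87, and 77 and 92 reads, and its captures overlapped. Each of these calls of masked TH59-DB against input was lost without input 1 or without input 2.

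**Figure D4:**
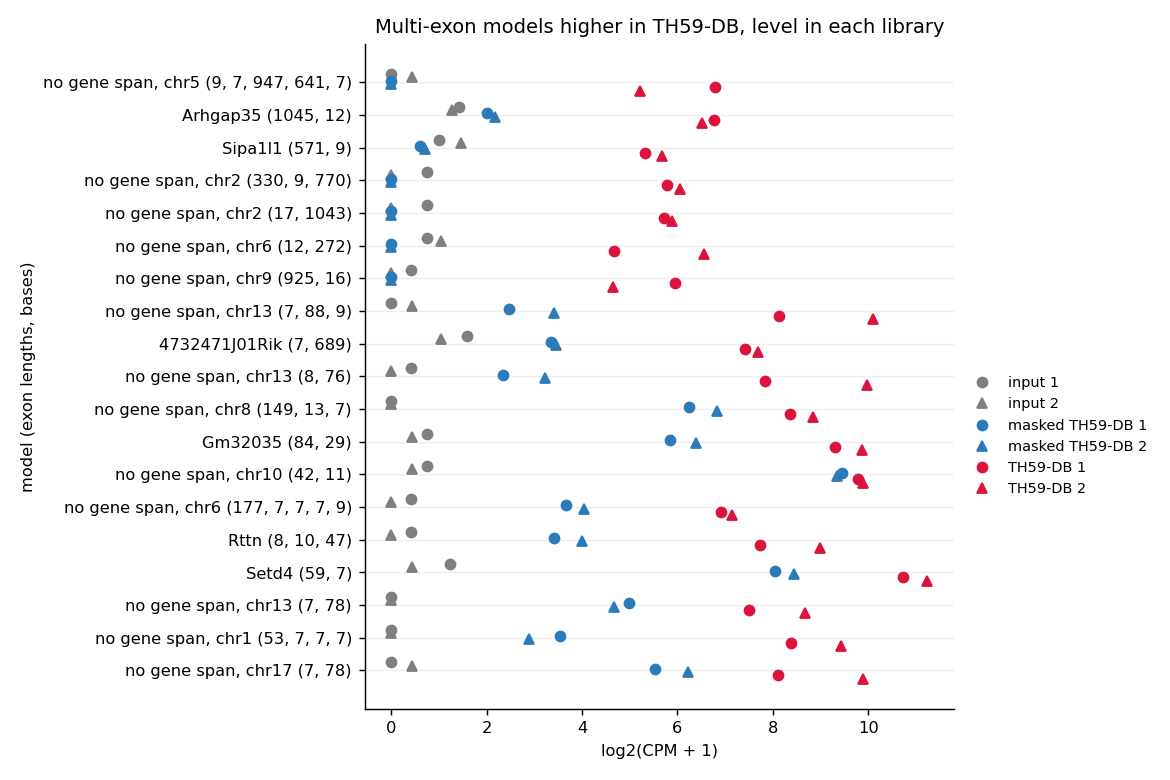
Level, as log2(CPM + 1), of the named multi-exon models higher in TH59-DB than in masked TH59-DB (upper 10) or input (the others), with a point per library and exon lengths in brackets. TH59-DB libraries are the rightmost points of all 19 models, and masked TH59-DB libraries lie near input in the upper 7 models, closest to TH59-DB in the chromosome 10 model, and between input and TH59-DB in the others.

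Called members with no exon under 50 bases were few, and they were chosen here after their values were seen. Tenm3, a teneurin adhesion protein gene, had a model of 61 and 455 bases with 0 and 0 reads in input, 7 and 5 with the masked probe, and 129 and 120 with TH59-DB (edgeR adjusted p = 0.0388 against masked TH59-DB). B230307C23Rik had a model of 4 exons of 141, 127, 64 and 105 bases with 6 and 19, 29 and 33, and 240 and 1094 reads (edgeR adjusted p = 0.0479), and the model lay within 1 Mb of the outermost mark of chromosome 16. Against input, Septin11, a cytoskeletal GTPase gene, was called as well (609 and 56 bases), with 1 and 0 reads in input, 0 and 0 with the masked probe, and 39 and 60 with TH59-DB (edgeR adjusted p = 0.0468). Slc14a2, with a shortest exon of 56 bases, was also called against input (edgeR adjusted p = 0.00521). It had 1 and 0 reads in input, 10 and 27 with the masked probe, and 50 and 320 with TH59-DB.

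The members with the highest input levels also included short-exon models. The model in Gphn, the gephyrin gene, has exons of 118, 7 and 7 bases and had 25397 and 6243 reads in input, 1303 and 2213 with the masked probe, and 1267 and 438 with TH59-DB. The models in Filip1l and Cmss1 overlap and share nearly all their reads, with 20344 and 8713 in input, 5161 and 6808 with the masked probe, and 3129 and 1178 with TH59-DB for Filip1l. For both, TH59-DB lay below input in every library, and neither passed (Gphn log2 −4.05, SE 1.20, edgeR adjusted p = 0.123). A short exon thus went with low as well as high values in the capture.

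A pair of members lies on Rpph1, the RNA subunit of the tRNA-processing enzyme RNase P, which has no intron. The first, at chr14:50807450-50807768, has a gap of 21 bases, and the second joins the gene to an exon 28765 bases away. The first had 6540 and 9555 reads in input, 4576 and 7323 with the masked probe, and 34413 and 29349 with TH59-DB, and the second nearly the same reads. Every TH59-DB library lay above the other 4 in CPM, and the difference did not pass (log2 2.83 against masked TH59-DB, SE 1.05, edgeR adjusted p = 0.314). Other members lay mostly on the linker histone genes H1f2 (515 of 537 exon bases) and H1f3 (331 of 338) and on the U1 snRNA gene Rnu1b1 (135 of 151), genes whose RNA is not known to be spliced. Their longest introns had 77386, 3676 and 31390 bases.

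How many members were called lower against input depended on the fit. There was 1 in the fit used here, 16 with DESeq2, 33 with only the 4 libraries compared and 72 with the replicate number as a block. Gpi1, the glycolytic enzyme glucose-6-phosphate isomerase, was the 1 called here (exons of 304 and 40 bases, chr7:34202246-34202676). It had 96 and 173 reads in input, 41 and 105 with the masked probe, and 14 and 10 with TH59-DB. Both TH59-DB libraries lay below all others (log2 −2.99, SE 0.66, edgeR adjusted p = 0.0290), and leaving out a library gave an adjusted p of 0.700 (input 2), 0.513 (input 1), 0.209 (TH59-DB 1) and 0.147 (TH59-DB 2). Against masked TH59-DB the smallest p among lower members belonged to Akt1, a protein kinase gene, with 94 and 177 reads for the masked probe against 19 and 24 for TH59-DB (log2 −2.15, SE 0.65, edgeR adjusted p = 0.184), then to Gpi1, to Cox4i1, a subunit of cytochrome c oxidase, to Kdm3a, a histone demethylase gene, and to Ipo7, a nuclear import gene, none of which passed. Against input, no member passed as lower in masked TH59-DB: the smallest p there belonged to a pair of overlapping models in no gene span at chr2:98662237-98667258, with 185 and 1682 reads in input, 20 and 85 with the masked probe, and 685 and 907 with TH59-DB, followed by Larp1, an RNA-binding protein gene, Camk1d, a protein kinase gene, and Gnas, a G protein gene.

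Grouped by function, the spliced models of housekeeping genes stood low in TH59-DB, mostly without single calls, as did members of high input level in general. Across the lists, only Gpi1 passed the test, so the following are medians and counts of direction, beside a median of −0.60 for all members tested in TH59-DB against input (72.2% below 0) and −0.18 against masked TH59-DB. For the 915 members with input FPKM over 50, the median against input was −1.10 with 94.2% below 0, and against masked TH59-DB −0.51 with 77.0% below 0. The lists were not compared with members of like level. Ribosomal protein genes had 60 members in 56 genes, all 60 below 0 in TH59-DB against input (median −1.82) and 58 below 0 against masked TH59-DB (median −0.86). Rplp2, of the ribosomal stalk, had 2101 and 3160 reads in input, 1495 and 2695 with the masked probe, and 857 and 705 with TH59-DB, and Rplp1, its partner, had 1451 and 2071, 471 and 1531, and 307 and 368. Translation factors had 32 members in 17 genes, all 32 below 0 against input (median −1.61) and 27 against masked TH59-DB (−0.53). Eef1a1, which brings tRNA to the ribosome, had 3396 and 5104 reads in input, 568 and 2212 with the masked probe, and 340 and 530 with TH59-DB (log2 −2.75 against input, SE 0.88, edgeR adjusted p = 0.151). Pabpc1, the poly(A)-binding protein, had 2102 and 2854, 191 and 1731, and 223 and 412 reads.

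Chaperones had 32 members in 18 genes, all 32 below 0 against input (median −1.45), with Npm1 and Ncl, nucleolar proteins, among them (Ncl is also on the list of snoRNA hosts). Glycolytic enzymes had 12 members in 9 genes (median −1.55, 10 below 0), cytoskeletal genes 10 in 9 (−1.47, all 10 below 0), nuclear-coded subunits of the respiratory chain 16 in 15 (−1.51, 14 below 0) and proteasome subunits 9 in 8, of which 8 were tested (−1.14, all 8 below 0). Actb, cytoplasmic actin, had 1062 and 1376 reads in input, 143 and 852 with the masked probe, and 184 and 215 with TH59-DB. Splicing factors and hnRNPs had 48 members in 37 genes with a median of −0.95 and 43 below 0, and snoRNA host genes 8 in 4 genes with −0.98. Hnrnpa2b1 had 521 and 869 reads in input, 288 and 800 with the masked probe, and 67 and 219 with TH59-DB, whereas Srrm2, a protein of nuclear speckles, had 228 and 324, 142 and 425, and 164 and 168. The signs of these medians against input held under RLE factors, library totals alone and sums of model reads as library sizes.

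Masked TH59-DB against input had negative medians for the same lists, from −1.11 for translation factors and −1.04 for the respiratory chain to −0.43 for snoRNA hosts, beside −0.47 for all members. The values for the captures share the input libraries. In these medians masked TH59-DB stood between input and TH59-DB, but its libraries were unlike. Summed CPM of splicing factors was 2071 and 3644 in input, 1493 and 3467 with the masked probe, and 1524 and 1352 with TH59-DB. For ribosomal proteins it was 9464 and 16489, 5031 and 11400, and 3700 and 3290, listed likewise. TH59-DB against masked TH59-DB had medians of −0.88 for cytoskeletal genes, −0.61 for chaperones and glycolysis and −0.54 for the proteasome. It had −0.52 for the respiratory chain, −0.55 for snoRNA hosts and −0.28 for splicing factors.

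Genes of the labelled cell type were in part present. Of 36 erythroid genes, 8 had members, 15 in number, all tested, with a median of −0.85 against input (14 below 0) and −0.53 against masked TH59-DB (11 below 0). Car1, carbonic anhydrase of red cells, had 608 and 751 reads in input, 120 and 535 with the masked probe, and 61 and 124 with TH59-DB in its model of 4 exons (log2 −2.34 against input, SE 0.75, edgeR adjusted p = 0.153). Zfpm1, a cofactor of the erythroid factor Gata1, had a model of 8 exons with 540 and 676, 321 and 781, and 229 and 182 reads. Of 16 genes of other blood cells 0 had a member, and of 10 genes of other tissues 0 did. Single-exon models numbered 4 in the genes of other blood cells, 0 in those of other tissues and 41 in the erythroid genes.

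Cell cycle and replication genes, with 18 members in 11 genes, had a median of −0.76 against input and 0.18 against masked TH59-DB, the latter turning to −0.13 with library totals alone. Of 14 telomerase and shelterin genes only Nhp2, a component of telomerase and H/ACA particles, had a member. Its 2 exons of 34 and 298 bases had 77 and 96 reads in input, 20 and 71 with the masked probe, and 31 and 27 with TH59-DB (log2 −1.12 against input, SE 0.66, edgeR adjusted p = 0.533). Nuclear long non-coding RNAs had 2 members. A model in Malat1, a nuclear-retained RNA, had 2342 and 3898 reads in input, 3984 and 11360 with the masked probe, and 6435 and 7268 with TH59-DB (log2 1.66 against input, SE 0.91, edgeR adjusted p = 0.497), and its exons of 949, 1 and 13 bases spread over chr19:5801097-5858227. Pvt1, with exons of 87, 128 and 120 bases, had 14 and 19, 15 and 22, and 15 and 16 reads, a difference not detectable at this depth.

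**Figure D5:**
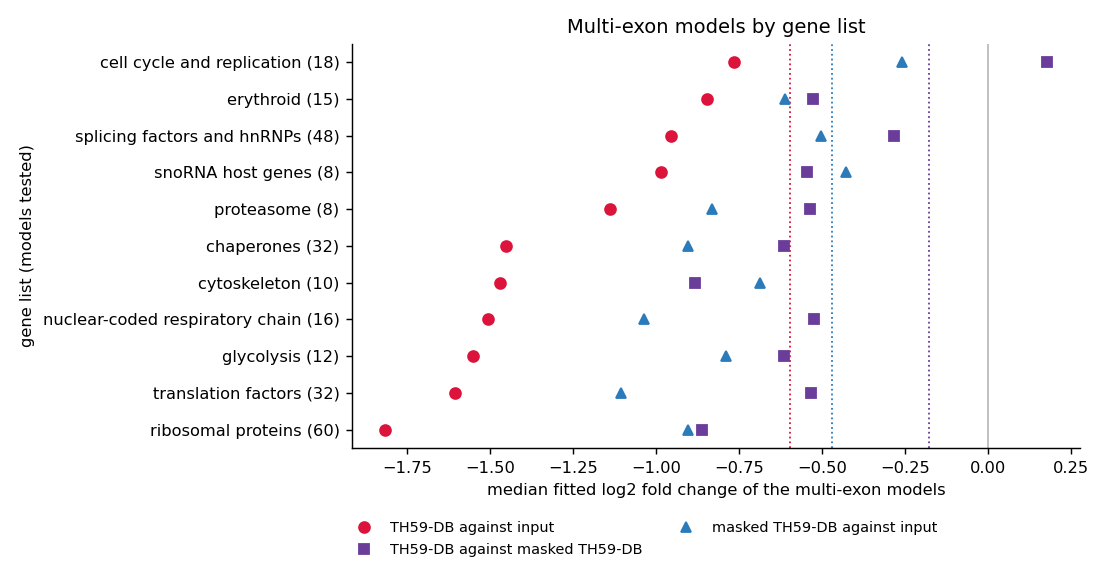
Median fitted log2 fold change of the multi-exon models of each gene list with at least 8 models tested, in the 3 comparisons; dotted lines mark the median of all multi-exon models tested in the comparison of the same colour. For TH59-DB against input, every list lies to the left of the dotted line at −0.60, with ribosomal protein genes lowest at −1.82.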

How the data were processed

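RNA of 6 libraries was measured. The authors deposited a read count and an FPKM per transcript model in each library, and the submitters' processing notes name cutadapt, HISAT2, Cufflinks, featureCounts and mm10. Versions, and the strand setting of the counting, are not given in the sources used here. Counts were used for all tests. Library totals were recovered from the deposited FPKM and counts, and FPKM in the text was computed anew, because most files gave models with 0 reads the FPKM of 1 read. First and second library files were joined on all exons (1650 members) or on first start and length (251).

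All 7959 models were fitted together with edgeR 4.0.16 in R 4.3.3 (filterByExpr, TMM, robust quasi-likelihood, group term), 2-sided, with Benjamini-Hochberg adjustment over the 5385 tested and calls at 0.05. DESeq2 1.42.0 was an alternative. The fit was tested on simulated data, where it recovered 33 of 100 changes of 8-fold and 85 of 100 of 64-fold, with 3 false calls. The changed models there were drawn only from those above a minimum mean count. Library sizes in the simulation were sums of simulated reads, unlike in the main fit. A model that did not pass can therefore still differ. Same-numbered libraries showed little deviation in common (correlations −0.0021, 0.0932 and 0.110), and the main fit held no term for the number. Such correlations cannot show that the libraries were not paired.

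A model was given the RefSeq gene (GRCm38.p6) whose span held at least 50% of its bases. Genes of at most 1000 bases were not used for members. For single-exon models they were left out only where the model was over 8 times as long as the gene. Members on such genes, among them Rps27, Snhg8, Rpph1, H1f2, H1f3 and Rnu1b1, could thus count as in no gene span or be missing from a gene list. Named members were the smallest p-values per comparison and direction, the highest input levels, the most exons, the widest and longest, leading members of each gene list, and hosts of intronic models. The members and lists were chosen with earlier results of these data known. Counting precision is limited at low reads, and at-least folds use 3 reads per library.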

Additional observations from a re-analysis of the deposited data

How the results depend on the processing

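The counts of multi-exon models called depended on the processing. For TH59-DB against masked TH59-DB (23) the count was 50 with RLE factors, 50 with library totals without TMM, 45 with sums of model reads as library sizes (chosen after seeing the data), 54 with no filter, 38 with only the 4 libraries compared, 64 with DESeq2, 8 with 3 or more exons, 12 with models matched on all exons, and 7 without models with an exon of at most 10 bases (also chosen after seeing the data); leaving out a library gave 9 to 432. For TH59-DB against input (60, of which 59 higher and 1 lower) it was 111 with 4 libraries (78 higher and 33 lower), 96 with DESeq2 (80 and 16), 18 with 3 or more exons, 37 matched on all exons and 17 without short-exon models; leaving out a library gave 46 to 113. For masked TH59-DB against input (6) it was 28, 40 and 24 under the 3 scalings, 38 with no filter, 42 with DESeq2, 2 with 1 model per locus, 1 with 3 or more exons and 2 without short-exon models; leaving out a library gave 0 to 448. With the replicate number as a block the counts were 56 (55 higher and 1 lower), 139 (67 and 72) and 39 (36 and 3). Whether the numbers pair the libraries is not known.

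The difference in median log2 fold change between multi-exon and single-exon models was −0.75 for TH59-DB against masked TH59-DB, −1.84 with no filter and −2.08 with DESeq2, and −5.26 to −0.40 on leaving out a library. For TH59-DB against input (−1.01) it was −2.03 with no filter, −2.16 with DESeq2, −1.21 with 3 or more exons, and −2.09 to −0.66 on leaving out a library. For masked TH59-DB against input (−0.38) it was −0.30 with RLE factors, −0.33 with library totals, −0.29 with model sums, −0.21 with 4 libraries, −0.33 with DESeq2, −0.49 with 3 or more exons, −0.41 without short-exon models and −0.32 against single-exon models in gene spans; leaving out a library gave −0.39 to 0.94, the reversed value being without masked TH59-DB 2. The cause was not tested.

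The share of reads in multi-exon models was 14.3% in input with 3 or more exons, 13.5% matched on all exons, 10.1% of the library total and 45.0% without the 2 largest models. In masked TH59-DB it was 56.0% without the 2 largest models. In TH59-DB it was 11.2% with 3 or more exons, 11.8% of the library total and 44.5% without the 2 largest models. Leaving out a library gave 18.2% to 26.6%, 8.44% to 26.6% and 20.6% to 35.7%. Each group had 2 libraries, with totals of 1803723 to 3122558 reads, which limits the precision of models with few reads.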
